A study of Mus musculus with 6 samples.

Results

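The unfolded protein response and the integrated stress response were described here through 32 genes, picked by symbol from the 49997 genes counted in each library. They fall into a chaperone arm of 21 genes, driven by the sensors ATF6 and IRE1, and a PERK/ATF4 arm of 11 genes. All 21 genes of the chaperone arm and 10 of the 11 genes of the PERK/ATF4 arm passed the filter on low counts, so that 31 of the 32 were tested. Chac1 was the exception.

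The RNA came from photoreceptors of Rosa26-Cas9 mice, which carry the nuclease SpCas9 in every cell. An adeno-associated virus with a 7m8 coat delivered either a guide RNA against Nr2e3 (guide libraries, n = 3) or a non-targeting guide (control libraries, n = 3) under the retina. It also carried the red protein mCherry behind a human GRK1 promoter, which is active in rods and cones, and mCherry-positive cells were sorted 6 months after injection. Each library was made from about 100000 sorted cells of the 2 retinas of a single mouse, so the libraries of a group are separate animals. The age at injection is given both as postnatal day 21 and as 4 weeks. Cas9 and the virus are shared by both groups, so neither group is an untreated retina, and cells of other types that carried mCherry or stuck to sorted cells would be in the same RNA. The guide group held 1 male (replicate 1) and 2 females, and the control group 3 males.

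Proteins that enter the secretory pathway fold in the endoplasmic reticulum (ER), and 3 sensors in its membrane read the load of unfolded protein. ATF6 is cut to release a transcription factor, IRE1 (gene Ern1) splices the mRNA of Xbp1, and both routes raise chaperones and the machinery that removes misfolded protein. PERK (gene Eif2ak3) phosphorylates the initiation factor eIF2alpha, which lowers protein synthesis and favours translation of Atf4, and other kinases such as GCN2 (gene Eif2ak4) feed the same step. Rods and cones make large amounts of opsin in the ER, and misfolded opsin is a textbook trigger of this response. Counts per gene read mRNA level only. They do not read splicing of Xbp1, cleavage of ATF6 or phosphorylation of eIF2alpha.

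The chaperone arm is known for a promoter element, the ER stress response element (ERSE), in which CCAAT is followed by 9 free bases and CCACG. RefSeq promoter windows (build GRCm38.p6, 250 bases before to 50 after each annotated start) were found for 29 of the 32 genes. Atf6, Hyou1 and Manf had none. Searched on both strands, the ERSE letters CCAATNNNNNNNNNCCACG occurred in the windows of 8 of the 29 genes (27.6%) and in 37 of 27025 genes with a window (0.137%). All 8 belong to the chaperone arm (8 of 18 with a window), and the PERK/ATF4 arm had 0 of 11. The matches are printed because they are what these genes share in sequence. Each is written 5′ to 3′ in the direction of the element, with the fixed letters in capitals, and positions count from the start, where -1 is the base before it.
Calr, reverse strand, -162 to -144: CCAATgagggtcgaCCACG
Canx, forward strand, -145 to -127: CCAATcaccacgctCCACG
Creld2, reverse strand, -126 to -108: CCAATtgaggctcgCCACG
Dnajc3, forward strand, -105 to -87: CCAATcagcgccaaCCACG
Hsp90b1, forward strand, -212 to -194: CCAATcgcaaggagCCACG
Hsp90b1, reverse strand, -107 to -89: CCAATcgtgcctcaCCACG
Hspa5, forward strand, -65 to -47: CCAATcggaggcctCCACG
Pdia6, forward strand, -98 to -80: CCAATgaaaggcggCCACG
Syvn1, forward strand, -44 to -26: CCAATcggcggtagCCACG

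A shorter form, ERSE-II (ATTGGNCCACG), occurred in 2 of the 29 genes (6.90%) and in 12 of the 27025 (0.0444%). Both are in the chaperone arm. The Dnajb11 match lies just after the start.
Dnajb11, forward strand, 8 to 18: ATTGGcCCACG
Herpud1, forward strand, -52 to -42: ATTGGgCCACG

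For the PERK/ATF4 arm the letters TGATGNAA, the core bound by ATF4 with a C/EBP partner and called CARE here, occurred in 5 of the 29 genes (17.2%) and in 1219 of 27025 (4.51%). They were found in 4 of the 11 PERK/ATF4 genes and in 1 of the 18 chaperone genes, Herpud1, which thus held both kinds of letters.
Asns, forward strand, -23 to -16: TGATGaAA
Atf3, reverse strand, -110 to -103: TGATGcAA
Chac1, reverse strand, -193 to -186: TGATGcAA
Herpud1, reverse strand, -112 to -105: TGATGcAA
Trib3, reverse strand, 15 to 22: TGATGtAA

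The cyclic AMP response letters TGACGTCA occurred only in the window of Ppp1r15a among the 29 (3.45%, against 2.03% of all genes), and the XBP1 letters TGACGTGG in none of the 29 (0.714% of all genes). The short CCAAT occurred in 23 of the 29 windows (79.3%) and in 41.1% of all, and it is contained in every ERSE. A match is a stretch of letters in these windows and was not measured as a binding site.

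The 250 bases before the start are given for Hspa5, the reference gene of the chaperone arm. They are also given for Pdia6, Ppp1r15a and Chac1, which were picked with their levels in view. Capitals mark the ERSE in Hspa5 and Pdia6, the TGACGTCA in Ppp1r15a, and in Chac1 the CARE letters as they read on the opposite strand. Each run is written along the gene's own strand.
Hspa5, chr2:34771840-34772089, plus strand: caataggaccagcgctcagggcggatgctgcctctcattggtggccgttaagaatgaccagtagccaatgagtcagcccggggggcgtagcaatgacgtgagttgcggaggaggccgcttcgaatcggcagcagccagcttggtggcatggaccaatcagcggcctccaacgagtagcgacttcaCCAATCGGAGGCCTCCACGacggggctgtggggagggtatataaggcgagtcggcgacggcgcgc
Pdia6, chr12:17266339-17266588, plus strand: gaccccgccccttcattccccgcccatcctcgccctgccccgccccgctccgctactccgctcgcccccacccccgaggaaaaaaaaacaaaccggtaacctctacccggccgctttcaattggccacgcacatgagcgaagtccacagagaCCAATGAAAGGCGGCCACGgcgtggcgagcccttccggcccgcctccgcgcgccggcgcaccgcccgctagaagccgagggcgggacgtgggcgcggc
Ppp1r15a, chr7:45526269-45526518, minus strand: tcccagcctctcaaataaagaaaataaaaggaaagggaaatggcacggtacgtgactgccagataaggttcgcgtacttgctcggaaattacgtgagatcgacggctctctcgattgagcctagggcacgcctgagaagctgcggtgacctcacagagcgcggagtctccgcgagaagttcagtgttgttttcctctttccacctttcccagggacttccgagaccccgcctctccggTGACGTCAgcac
Chac1, chr2:119350992-119351241, plus strand: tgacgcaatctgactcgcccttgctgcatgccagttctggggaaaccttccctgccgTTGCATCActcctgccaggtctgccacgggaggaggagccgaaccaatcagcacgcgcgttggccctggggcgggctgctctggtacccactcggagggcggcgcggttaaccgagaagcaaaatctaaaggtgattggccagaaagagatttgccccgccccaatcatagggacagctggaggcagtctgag

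Libraries held 24705561 to 34286248 gene counts. Levels are counts scaled by the TMM-corrected library size (CPM), and 3 counts corresponded to 0.0802 to 0.131 CPM. Nr2e3 itself was at 2094, 1906 and 2244 CPM in the guide and 1756, 1572 and 1507 CPM in the control group (log2 fold change 0.37, SE 0.13, edgeR adjusted p = 0.716). Because whole-gene counts are blind to small indels, the Nr2e3 level is no check of the guide. Rod markers dominated every library, with 188887 to 240712 CPM summed over 12 genes, as the label of sorted photoreceptors states. Summed levels of 11 cone markers were 17593, 15573 and 13595 CPM in the guide and 8100.0, 8523 and 3959.7 CPM in the control group, without overlap. Control replicate 3 stood apart: it was above both other controls in 13 of 13 microglia markers, whose summed level was 44.3, 200.2 and 138 CPM in the guide and 39.6, 42.3 and 356 CPM in the control group. It was also above both in 12 of 15 injury genes, summed at 74.5, 143 and 140 CPM in the guide and 78.4, 80.8 and 388 CPM in the control group. It was below both in 10 of 12 rod, 10 of 11 cone and 11 of 12 amacrine markers.

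Levels of most stress response genes overlapped between the 2 groups. Mean Hspa5, the BiP chaperone, was 239.5 ± 23.6 CPM with the Nr2e3 guide and 219 ± 31.3 CPM with the control guide, and mean Ddit3, the CHOP factor, 57.3 ± 8.89 and 55.7 ± 8.51 CPM (SD, n = 3 each). Among the genes tested, the smallest unadjusted p by edgeR were those of Pdia6, Dnajb11 and Ppp1r15a. Pdia6 and Dnajb11 are folding helpers of the ER, and their guide libraries were all above the controls. Ppp1r15a is a target of ATF4, and its guide libraries were all below the controls. None passed the test over all genes. Chac1, also a target of ATF4, did not pass the filter of the main edgeR fit, with 0, 0 and 2 counts in guide and 18, 34 and 3 in control libraries.

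Across all 17138 genes tested, the edgeR quasi-likelihood test (Benjamini-Hochberg adjusted) called 59 genes at an adjusted p under 0.05 (0.344%), of which 54 were higher (0.315%) and 5 lower (0.0292%) in guide libraries. Of the 31 stress response genes tested, 0 were called. At an unadjusted p under 0.05, 3 of the 31 passed, against 5.69% of all genes. These were Pdia6 and Dnajb11, higher in guide libraries (3.08% of all genes in that direction), and Ppp1r15a, lower (2.61%). DESeq2 also called 0 of the 31, or of 32 with Chac1, with 0.751% of its genes called. Its genes include many below the edgeR filter, and among the 17138 that passed that filter it called 231. At an unadjusted p under 0.05 DESeq2 had 4 of the 32, Chac1 among them, against 3.9% of all genes it tested. Among the 17138 genes past the edgeR filter it had 1033. Limma-voom called 0 as well, with 1.04% of genes called, and 6 of the 31 at an unadjusted p under 0.05, against 11.5% of all genes. The count was 0 in each of the 17 alternative settings too, but the fit among males only called 0 genes in all and the fit with sex as a term 6, so both say little about these genes.

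For 20 of the 31 genes the 95% interval of the fold change lay within a 2-fold change either way, as it did for 43.3% of all genes. These were 15 of 21 chaperone genes and 5 of 10 PERK/ATF4 genes. For the others the interval reached beyond a 2-fold change. The median absolute log2 fold change was 0.19 over the 31 and 0.25 over all genes, with a median SE of 0.22 and 0.36. Groups did not overlap for 3 genes with guide libraries higher (Xbp1, Dnajb11 and Pdia6, against 6.2% of all genes) and for 2 tested genes with guide libraries lower (Pdia4 and Ppp1r15a, against 5.91%), or 12.1% of all genes in either direction. With 31 genes these counts are close to the shares over all genes and are not read as a result about the list.

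**Figure D1:**
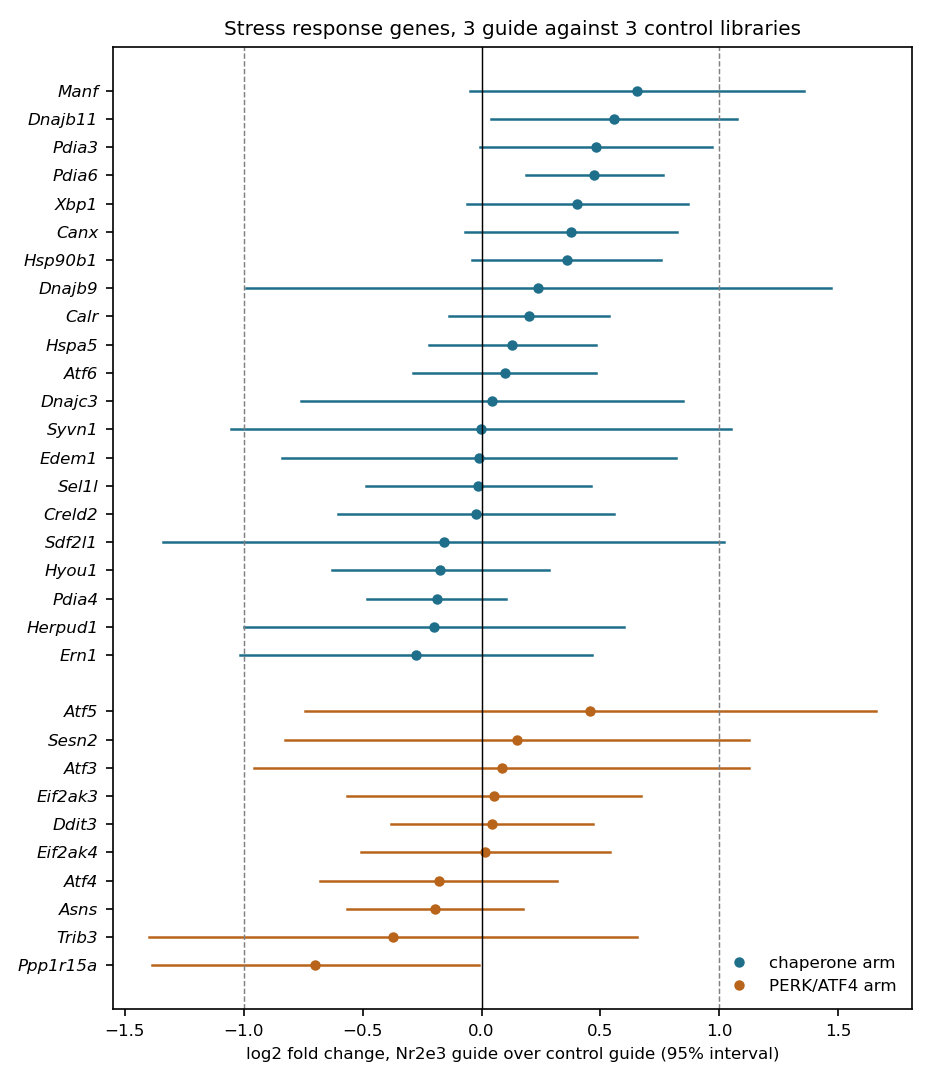
Log2 fold change of guide over control libraries (x axis; point, with its 95% interval as a line) for the 31 stress response genes tested, in the chaperone arm (blue) and the PERK/ATF4 arm (orange), n = 3 libraries a group. Points lie between -0.70 for Ppp1r15a and 0.65 for Manf, dashed lines mark a 2-fold change, and the intervals of Pdia6, Dnajb11 and Ppp1r15a do not cross 0.

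In the following, values are listed in the order of replicates 1, 2 and 3 of each group, and adjusted p-values come from the edgeR test over all genes. Coordinates are those of RefSeq genes on GRCm38.p6. The levels of the sensors of the chaperone arm overlapped between groups. Atf6 (chromosome 1, 170704457 to 170868585) was at 74.7, 52.8 and 61.5 CPM in the guide and 57.8, 55.2 and 63.7 CPM in the control group (log2 fold change 0.10, SE 0.17, edgeR adjusted p = 0.995). Ern1 (chromosome 11, 106397620 to 106487796), which encodes IRE1, was at 3.79, 4.09 and 3.62 CPM in the guide and 3.81, 3.87 and 6.23 CPM in the control group (log2 fold change -0.27, SE 0.32, edgeR adjusted p = 0.995). Control replicate 3 had the highest Ern1 level and the other 5 libraries lay close together.

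Xbp1 (chromosome 11, 5520641 to 5525993), the factor whose mRNA IRE1 splices, was at 19.5, 21.2 and 23.4 CPM in the guide and 15.5, 19.2 and 13.8 CPM in the control group (log2 fold change 0.40, SE 0.20, edgeR adjusted p = 0.942). Each guide library was above each control library, with guide replicate 1 and control replicate 2 nearly level. The spliced and unspliced forms are counted together.

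Among the 7 lumenal chaperones, Hspa5, the HSP70 of the ER also called BiP, is the standard readout of ER stress. Hspa5 (chromosome 2, 34772090 to 34776529) was at 225, 227 and 267 CPM in the guide and 201, 201 and 255 CPM in the control group (log2 fold change 0.13, SE 0.15, edgeR adjusted p = 0.995). Replicate 3 was the highest library in both groups, and the groups overlapped. The 95% interval of its fold change ran from 0.858 to 1.39.

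Hsp90b1 (chromosome 10, 86690841 to 86705444), the HSP90 of the ER, had the highest level of the 32 genes per length. It was at 749, 597 and 503 CPM in the guide and 528, 459.7 and 456 CPM in the control group (log2 fold change 0.36, SE 0.17, edgeR adjusted p = 0.926). Guide replicates 1 and 2 were above every control library, and guide replicate 3 was below control replicate 1. Exons of the opposite-strand pseudogene 1810014B01Rik share 10.3% of its exon length, and reads within that shared stretch cannot be told apart.

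Dnajb11 (chromosome 16, 22857845 to 22879634), a co-chaperone of BiP, was at 26.6, 34.6 and 21.0 CPM in the guide and 18.9, 20.1 and 16.9 CPM in the control group (log2 fold change 0.56, SE 0.22, edgeR adjusted p = 0.829, unadjusted p = 0.0385). The groups did not overlap, guide replicate 2 was the highest and guide replicate 3 lay just above the highest control. Its unadjusted p was under 0.05 in 9 of 17 alternative settings. The other 4 lumenal chaperones had log2 fold changes from -0.17 for Hyou1, a nucleotide exchange partner of BiP, to 0.24 for Dnajb9, with Dnajc3, which also inhibits eIF2alpha kinases, at 0.04 and Sdf2l1 at -0.16. Sdf2l1 rested on 15 to 34 counts per library.

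The lectin chaperones hold glycoproteins during folding. Canx (calnexin, chromosome 11, 50293957 to 50325673) was at 540.1, 449 and 324 CPM in the guide and 349, 337 and 324 CPM in the control group (log2 fold change 0.38, SE 0.19, edgeR adjusted p = 0.951). Guide replicates 1 and 2 exceeded all controls, while guide replicate 3 was level with the lowest control. Calr (calreticulin), its soluble counterpart, was at 251, 254 and 238 CPM in the guide and 253, 205 and 189 CPM in the control group (log2 fold change 0.20, SE 0.14, edgeR adjusted p = 0.995), and control replicate 1 lay within the guide range.

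Of the 4 protein disulfide isomerases, Pdia6 had the smallest p of the 31 genes. Pdia6 (chromosome 12, 17266589 to 17284785), which also limits IRE1 signalling, was at 253, 231 and 224 CPM in the guide and 184, 161 and 165 CPM in the control group. The means were 236 ± 14.9 and 170 ± 12.3 CPM (SD, n = 3 each). All 3 guide libraries were above all 3 controls, and each group was tight. The guide level was 1.39-fold the control level (95% interval 1.14 to 1.70, log2 fold change 0.48, SE 0.12, edgeR adjusted p = 0.364, unadjusted p = 0.00565), so it did not pass over all genes. The unadjusted p was under 0.05 in 17 of 17 alternative settings, with log2 fold changes from 0.42 to 0.57 and adjusted p from 0.0979, with limma-voom, to 1.0.

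Pdia3, the partner of calnexin and calreticulin, was at 52.9, 48.5 and 31.9 CPM in the guide and 32.9, 30.6 and 31.9 CPM in the control group (log2 fold change 0.48, SE 0.21, edgeR adjusted p = 0.890). As for Canx, guide replicates 1 and 2 were above all controls and guide replicate 3 was not. Pdia4 lay the other way: it was at 123, 133 and 144 CPM in the guide and 161, 146 and 149 CPM in the control group (log2 fold change -0.19, SE 0.12, edgeR adjusted p = 0.995), and all 3 guide values were below the controls. Creld2 was at a log2 fold change of -0.02 (SE 0.25). Of the 4 isomerases, 2 were thus above 0 and 2 below. Pdia3, Pdia4 and Calr were named after their values were seen.

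ER-associated degradation returns misfolded proteins to the cytosol for the proteasome. Its 4 genes among the 32 had log2 fold changes from -0.20 for Herpud1 to -0.00078 for Syvn1. Of 14 further genes of this process that were tested, 11 were above 0 and 3 below (median 0.18). Herpud1 (chromosome 8, 94386429 to 94395371) was at 19.1, 37.6 and 55.2 CPM in the guide and 45.8, 40.6 and 42.3 CPM in the control group (log2 fold change -0.20, SE 0.34, edgeR adjusted p = 0.995). The spread lay in the guide group, where replicate 1 was the lowest and replicate 3 the highest of all 6 libraries. Its log2 fold change was -1.17 with sex as a term (adjusted p = 0.453), -1.18 among males only (adjusted p = 0.509) and 0.11 without guide replicate 1. Sel1l (chromosome 12, 91806043 to 91849157), the adaptor of the Syvn1 ubiquitin ligase, was at 49.3, 32.5 and 41.4 CPM in the guide and 36.7, 38.9 and 48.9 CPM in the control group (log2 fold change -0.01, SE 0.20, edgeR adjusted p = 0.998). Syvn1 itself was highest in the replicate 3 library of both groups (48.7 and 38.5 CPM against 16.5 to 22.9 CPM in the other 4), and Edem1 was at a log2 fold change of -0.01 (SE 0.36).

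Manf (chromosome 9, 106888753 to 106891938), a secreted ER protein induced by ER stress and studied as a survival factor in the retina, had the highest fold change of the 31 in the fit over all 6 libraries. It was at 6.18, 12.1 and 9.83 CPM in the guide and 5.78, 5.63 and 6.44 CPM in the control group (log2 fold change 0.65, SE 0.30, edgeR adjusted p = 0.915). With sex as a term its log2 fold change was 0.06, and among males only 0.04. Guide replicates 2 and 3 were above all controls, but guide replicate 1 was within the control range. The 3 controls were close together. Exons of the antisense gene 4930524O07Rik share 4.71% and those of Dcaf1 4.14% of the Manf exon length.

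Taken as an arm, the chaperone genes had a median log2 fold change of 0.10 with 12 of 21 above 0, beside a median of -0.01 over all genes. Their summed level was 2473, 2216 and 2071 in the guide and 1985, 1810.1 and 1884 in the control group (CPM). Each guide library was above each control library in this sum, which Hsp90b1 and Canx lead. The mean of log2(CPM + 0.5) over the 21 genes, which weights genes equally, was 5.07, 5.10 and 5.17 in the guide and 4.98, 4.95 and 5.03 in the control group. The group means were 5.11 ± 0.047 and 4.99 ± 0.043 (SD, n = 3 each).

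**Figure D2:**
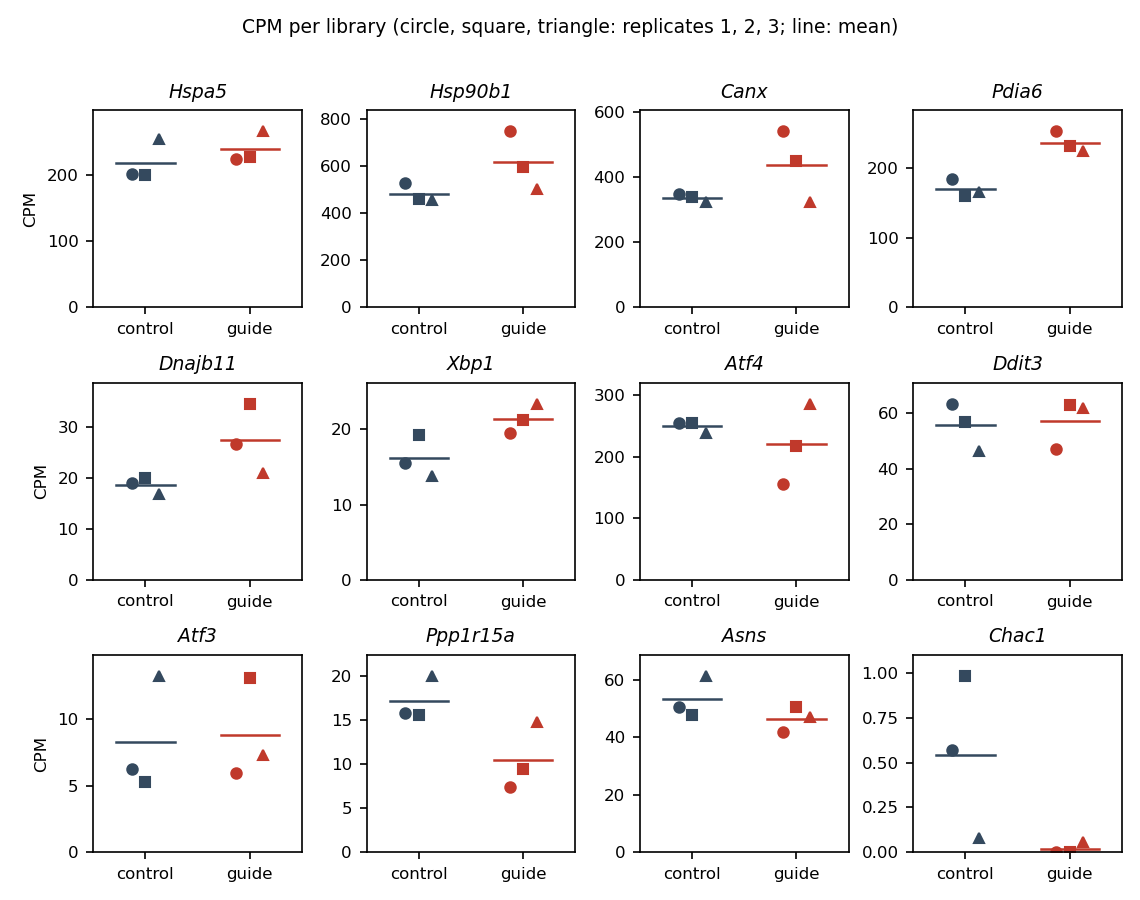
CPM in each library (y axis, from 0) for 12 stress response genes in control (blue) and guide (red) libraries. Circle, square and triangle are replicates 1, 2 and 3, and the line is the group mean. Pdia6 lies between 224 and 253 CPM in guide and between 161 and 184 CPM in control libraries, whereas Hspa5, Atf4, Ddit3 and Atf3 overlap between groups and Chac1 is near 0 in guide libraries.

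In the PERK/ATF4 arm the mean levels of the kinases were close, and the groups overlapped. Eif2ak3 (chromosome 6, 70844484 to 70905241) was at 17.3, 12.1 and 11.5 CPM in the guide and 12.2, 10.6 and 16.5 CPM in the control group (log2 fold change 0.05, SE 0.27, edgeR adjusted p = 0.997). Exons of Gm43292, on the opposite strand, share 8.05% of its exon length. Eif2ak4 (chromosome 2, 118388583 to 118475234), which senses uncharged tRNA, was at 8.27, 7.75 and 7.68 CPM in the guide and 7.02, 8.60 and 7.80 CPM in the control group (log2 fold change 0.02, SE 0.22, edgeR adjusted p = 0.998). All 6 Eif2ak4 values lay between 7.02 and 8.60 CPM.

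Of the transcription factors, Atf4 had the highest level. Atf4 (chromosome 15, 80255184 to 80257545) was at 157, 218 and 287 CPM in the guide and 255, 255 and 239.7 CPM in the control group (log2 fold change -0.18, SE 0.21, edgeR adjusted p = 0.995). The 3 controls were close together (250 ± 8.60 CPM) and the guide libraries were spread on both sides of them (220 ± 65.1 CPM, SD, n = 3 each). Since ATF4 is controlled mainly by translation, its mRNA is a partial readout of the pathway.

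Ddit3 (chromosome 10, 127290793 to 127296291), which encodes the factor CHOP and is linked to cell death under prolonged stress, was at 47.1, 63.0 and 62.0 CPM in the guide and 63.5, 56.8 and 46.6 CPM in the control group (log2 fold change 0.04, SE 0.18, edgeR adjusted p = 0.996). Its fold change had a 95% interval of 0.768 to 1.38. The lowest library was a control and the highest a control too. Exons of Mars, on the opposite strand, share 3.97% of the Ddit3 exon length.

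Atf3 (chromosome 1, 191170296 to 191183333), an early stress factor, was at 5.95, 13.1 and 7.27 CPM in the guide and 6.23, 5.31 and 13.2 CPM in the control group (log2 fold change 0.09, SE 0.45, edgeR adjusted p = 0.997). Guide replicate 2 and control replicate 3 were highest, and the same 2 libraries had the highest summed microglia markers (200.2 and 356 CPM). The part of those cells in the Atf3 level was not tested. Atf5 (chromosome 7, 44812256 to 44816658), a relative of Atf4, was at 0.796, 1.57 and 0.883 CPM in the guide and 0.921, 0.606 and 0.828 CPM in the control group (log2 fold change 0.46, SE 0.52, edgeR adjusted p = 0.995), from 21 to 36 counts per library.

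The lowest fold changes of the arm were among its downstream targets. Ppp1r15a (chromosome 7, 45522917 to 45526268) encodes GADD34, which removes the phosphate from eIF2alpha and closes the loop. It was at 7.36, 9.40 and 14.8 CPM in the guide and 15.8, 15.5 and 20.0 CPM in the control group. The means were 10.5 ± 3.85 and 17.1 ± 2.48 CPM (SD, n = 3 each). All 3 guide libraries were below all 3 controls, with guide replicate 3 nearest to them (log2 fold change -0.70, SE 0.29, edgeR adjusted p = 0.874, unadjusted p = 0.0471). The unadjusted p was under 0.05 in 12 of 17 alternative settings, and the log2 fold change ran from -1.23 to -0.50.

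Ppp1r15a is also an early response gene of handled tissue. The summed level of 15 genes of the dissociation response, such as Fos and Egr1, was 370.1, 394 and 357 CPM in the guide and 467, 478 and 619 CPM in the control group, likewise without overlap. Its part in the Ppp1r15a difference was not tested.

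Chac1 (chromosome 2, 119351242 to 119354326), which degrades glutathione and is a target of ATF4, had 0, 0 and 2 counts in guide and 18, 34 and 3 counts in control libraries. It was below the filter on low counts in the main edgeR fit and so has no test there. In the 8 alternative settings that kept Chac1, its log2 fold change ran from -7.49 to -3.90. Control replicates 1 and 2 carried most of its counts, and control replicate 3 was near the guide libraries. Pooled over libraries, guide over control was 0.0452 (95% interval 0.00534 to 0.171, counting error only). DESeq2, which kept the gene, gave an unadjusted p of 0.0074 and an adjusted p of 0.293. Over the 8 alternative settings that kept it, the adjusted p ran from 0.169 to 1.0. Chac1 was named after its values were seen.

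Asns (chromosome 6, 7675165 to 7693209), asparagine synthetase and the classic amino acid response target, was at 41.9, 50.4 and 47.0 CPM in the guide and 50.4, 47.8 and 61.3 CPM in the control group (log2 fold change -0.20, SE 0.16, edgeR adjusted p = 0.995). Control replicate 3 was the highest and the other 5 libraries overlapped. Trib3, an inhibitor that feeds back on ATF4 and CHOP, had a log2 fold change of -0.37 (SE 0.44) with guide replicate 2 lowest at 2.87 CPM. Sesn2, a brake on mTORC1, was at 0.15 (SE 0.42).

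The PERK/ATF4 arm had a median log2 fold change of 0.03 over the 10 genes tested, with 6 above 0, and its sign turned with the scaling (-0.00030 with upper-quartile factors, -0.0074 with the 50 most abundant genes left out of the library size). The mean of log2(CPM + 0.5) over all 11 genes was 3.20, 3.33 and 3.53 in the guide and 3.46, 3.52 and 3.61 in the control group. The group means were 3.35 ± 0.16 and 3.53 ± 0.074 (SD, n = 3 each) and the groups overlapped. Without Chac1 the means were 3.78 ± 0.17 and 3.89 ± 0.14. The summed level was 295, 380.4 and 454 in the guide and 421, 414 and 419 in the control group (CPM), of which Atf4 made up most.

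Set against each other, the chaperone minus PERK/ATF4 mean was 1.87, 1.77 and 1.64 in the guide and 1.52, 1.43 and 1.43 in the control group on the log2 scale. Every guide library was above every control library, and the group means differed by 0.30. Without Chac1, a comparison added after the data were seen, the values were 1.45, 1.34 and 1.20 in the guide and 1.19, 1.13 and 0.99 in the control group, a difference of 0.23. No test was made of these scores, since the genes were chosen with earlier results known. Summed cone markers and early dissociation genes separated the same libraries, and so did 8 pigment epithelium markers, at 3.34, 1.83 and 4.06 CPM in the guide and 20.3, 20.7 and 5.26 CPM in the control group. Of those 8 markers, 4 passed the filter on low counts. Summed markers of rods, microglia, Müller glia, amacrine cells, bipolar cells, and vessels and blood overlapped between groups. Summed injury genes overlapped too. The part of other cell types in the arm values was not tested. In bulk RNA a shift in the share of cells of a type cannot be told apart from a shift in RNA per cell.

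**Figure D3:**
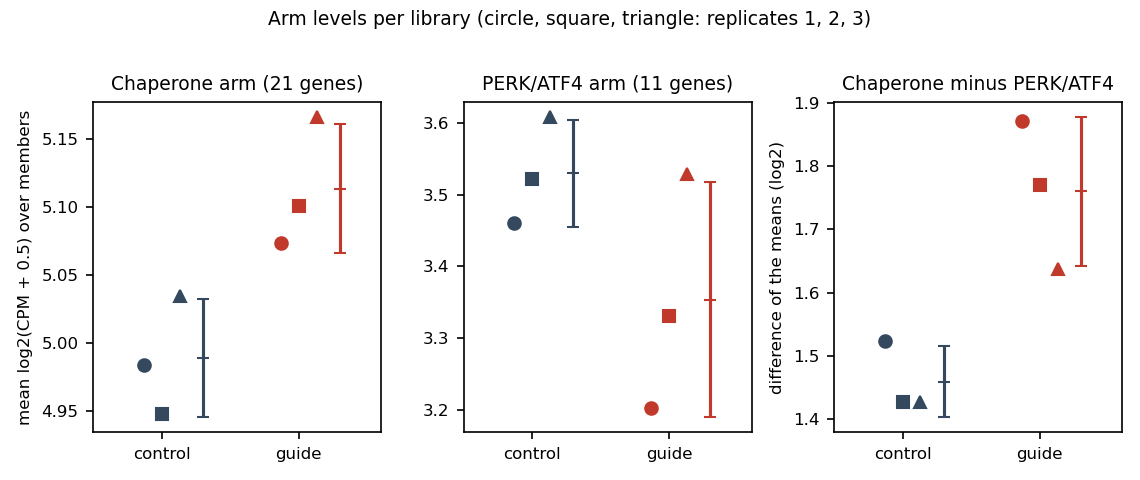
Mean log2(CPM + 0.5) of the chaperone arm (21 genes), of the PERK/ATF4 arm (11 genes, Chac1 included) and their difference, for each library (circle, square, triangle: replicates 1, 2, 3), with the group mean and SD as a bar. The y axes do not start at 0. The difference lies between 1.64 and 1.87 in guide and between 1.43 and 1.52 in control libraries.

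Because the control mice were all male, guide replicate 1, the only male guide library, was also set against the 3 controls alone. In that comparison the chaperone median was 0.17 and the PERK/ATF4 median -0.35. That fit called 0 of 19605 genes (0%), so its 0 calls in the arms say nothing about them. At an unadjusted p under 0.05 it had 5 of 21 chaperone and 2 of 11 PERK/ATF4 genes, against 1752 of all genes (8.94%). Leaving out both replicate 3 libraries gave medians of 0.15 and -0.13, with 0 calls in either arm against 73 of 16978 genes (0.43%). At an unadjusted p under 0.05 there were again 5 of 21 and 2 of 11, against 2432 of all genes (14.3%). Without control replicate 3 alone the medians were 0.25 and -0.07, with 0 calls in either arm against 89 of 17797 genes (0.5%), and 1 of 21 and 1 of 11 passed an unadjusted p under 0.05, against 8.6% of all genes. Guide replicate 1 was the highest of the 6 in 8 of the 31 genes and the lowest in 8 (25.8% each, against 17.5% and 18.8% of all genes). Guide replicate 3 was the highest in 8 and the lowest in 3 (against 15.2% and 13.5% of all genes). Control replicate 3 was the highest in 6 and the lowest in 6 (against 23.5% and 21.3%). Guide replicate 2 was the highest in 5 and the lowest in 4 (against 19.5% and 23.5% of all genes). Control replicate 1 was the highest in 3 and the lowest in 3 (against 14.1% each). Control replicate 2 was the highest in 1 and the lowest in 7 (3.23% and 22.6%, against 10.2% and 8.80% of all genes). The spread between animals, as the median coefficient of variation, was 24.8% in guide and 14.3% in control libraries over the 31 genes, and 26.8% and 23.8% over all genes tested.

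Scaled by exon length, the order of levels in control libraries opened with Hsp90b1 at 119 ± 10.01 CPM per kb, Atf4 at 106 ± 3.65, Calr at 74.9 ± 11.5, Canx at 71.8 ± 2.62, Pdia4 at 63.3 ± 3.40, Hspa5 at 51.8 ± 7.39, Pdia6 at 45.4 ± 3.27 and Ddit3 at 32.5 ± 4.97 (SD, n = 3). It closed with Ern1 at 0.567 ± 0.169, Atf5 at 0.394 ± 0.0813 and Chac1 at 0.332 ± 0.276 CPM per kb. Abundant genes were thus mostly chaperones, with the exceptions of Atf4 and Ddit3, and the sensor kinases Ern1, Eif2ak3 and Eif2ak4 lay in the lower part of the order. The sensor Atf6 lay higher, at rank 12 with 6.38 CPM per kb. Neighbours in this order overlapped in range for 22 of 31 pairs, including Calr with Canx and Hspa5 with Pdia6. In guide libraries 16 of the 32 genes had the same rank, and Ppp1r15a moved from rank 13 to rank 20.

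**Figure D4:**
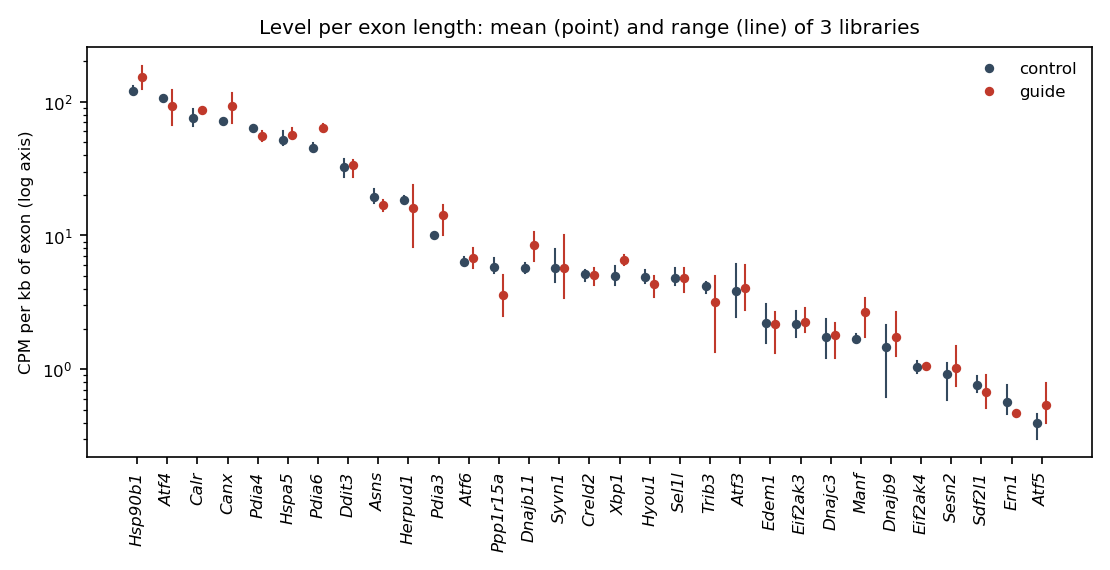
Level per kb of exon (y axis, log scale) of the 31 genes tested, ordered by the control mean, in control (blue) and guide (red) libraries. The point is the mean and the line the range of 3 libraries. Hsp90b1 is highest at 119 CPM per kb in controls and Atf5 lowest at 0.394, and most ranges of the 2 groups overlap.

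Further genes of these pathways were counted in the same way. Of 60 further ER and unfolded protein response genes, 58 were tested and 0 were called by edgeR, DESeq2 or limma-voom. Their median log2 fold change was 0.04. Of 14 tested genes of ER-associated degradation 11 were above 0 (median 0.18), and of 18 of translocation and export 13 were (median 0.09). Of 16 genes of folding and redox 7 were above 0 (median -0.04), and of 10 sensors and factors 2 were (median -0.16). Among all 17138 genes tested, 8304 were above 0. By edgeR 4 had an unadjusted p under 0.05 (2 higher, 2 lower), against 5.69% of all genes. Groups did not overlap for 4 with guide libraries higher and 2 lower, against 6.2% and 5.91% of all genes. These counts are not read as a result about the list. The genes of smallest p in it were Creb3l2, a membrane-bound factor cut in a similar way to ATF6, and Txndc5, a thioredoxin-like folding enzyme. Creb3l2 was at 2.35, 2.22 and 1.50 CPM in the guide and 4.03, 4.70 and 4.46 CPM in the control group (log2 fold change -1.12, SE 0.33, edgeR adjusted p = 0.503), without overlap. Txndc5 was at 37.6, 34.2 and 33.4 CPM in the guide and 25.9, 26.4 and 19.4 CPM in the control group (log2 fold change 0.55, SE 0.18, edgeR adjusted p = 0.609). Its guide libraries were all above the controls.

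Of 53 further integrated stress response genes, 46 were tested and 0 were called by edgeR or limma-voom. Their median log2 fold change was -0.09. By edgeR 2 had an unadjusted p under 0.05, both lower in guide libraries, against 2.61% of all genes in that direction. Groups did not overlap for 4 with guide libraries higher and 3 lower, against 6.2% and 5.91% of all genes. DESeq2 called 1 gene of this list, Phgdh, the first enzyme of serine synthesis, against 0.751% of all genes it tested. Among the 17138 genes past the edgeR filter it called 231. Phgdh was at 0.379, 0.392 and 1.18 CPM in the guide and 3.27, 3.98 and 2.89 CPM in the control group (log2 fold change -2.35, SE 0.55, edgeR adjusted p = 0.260, DESeq2 adjusted p = 0.00555). Its adjusted p ran from 0.00555 to 0.909 over 16 alternative settings. Guide replicates 1 and 2 held 10 and 9 counts, and the controls 103 to 138. Phgdh is an enzyme of Müller glia in the retina, and the summed level of 15 Müller glia markers was 1375, 1691 and 1558 CPM in the guide and 1354, 1295 and 1603 CPM in the control group, which overlapped. The part of those cells in the Phgdh level was not tested.

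Aars, alanyl-tRNA synthetase, was at 174, 217 and 219.7 CPM in the guide and 265, 261 and 311 CPM in the control group (log2 fold change -0.45, SE 0.15, edgeR adjusted p = 0.602). Each guide library was below each control. Of 12 tRNA synthetases, which ATF4 is known to raise as a group, 11 had a log2 fold change below 0, with a median of -0.13 and 0 called, where 8834 of all 17138 genes tested were below 0. Of 16 genes of amino acid supply, 10 were below 0 (median -0.11), and of 10 genes acting on eIF2 6 were (median -0.07). Of 3 further factors 2 were below 0 (median -0.01), and of 5 other targets 4 were above 0 (median 0.17). The further eIF2alpha kinases Eif2ak1 and Eif2ak2, named outside the rule, were at -0.10 (SE 0.26) and -0.18 (SE 0.53).

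Of 20 cytosolic heat shock genes, which answer to unfolded protein outside the ER, 18 were tested and 0 were called by the 3 tools. Their median log2 fold change was -0.08. By edgeR 1 had an unadjusted p under 0.05, against 5.69% of all genes. Dnajb1, an HSP40 co-chaperone, was at 25.3, 35.6 and 31.0 CPM in the guide and 38.5, 39.3 and 57.0 CPM in the control group (log2 fold change -0.55, SE 0.22, edgeR adjusted p = 0.806). Bag3, a co-chaperone of HSP70, was at 0.152, 0.348 and 0.530 CPM in the guide and 0.572, 0.750 and 1.18 CPM in the control group (log2 fold change -1.26, SE 0.67, edgeR adjusted p = 0.963). Depth limits Bag3, which rested on 4, 8 and 18 counts in guide and 18, 26 and 44 in control libraries. For Dnajb1 and Bag3, each guide library was below each control library and control replicate 3 was the highest. Groups did not overlap for these 2 of the 18 genes, against 12.1% of all genes.

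The ERSE letters also occur in 29 genes outside the 32. Of these 13 were tested, 0 were called (0 at an unadjusted p under 0.05), and their median log2 fold change was -0.21 with 3 above 0. Their median SE was 0.68, against 0.36 over all genes. The 95% interval lay within a 2-fold change for 4 of the 13, against 43.3% of all genes, so the median is imprecise. Of the 8 stress response genes with the letters, Pdia6, Hsp90b1, Canx, Calr and Hspa5 had log2 fold changes of 0.48, 0.36, 0.38, 0.20 and 0.13, and Dnajc3, Syvn1 and Creld2 of 0.04, -0.00078 and -0.02.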

How the data were processed

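For each of the 6 libraries the authors deposited a table of whole-number counts of reads by gene symbol. Per the submitters' processing notes, the genome build was GRCm38 (mm10) and the tools were STAR 2.7.3a, cutadapt, HTSeq 0.12.4 and DESeq2 1.42.0. Which annotation was counted, and whether strand was used, is not given in the sources used here; the SMARTer kit named in the labels does not mark strand. The 5 entries that name no gene (21.6 to 23.7% of counts) were left out. Reads carry no molecular identifiers, so floors and counting intervals cover counting error only.

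Groups were taken from the labels and compared over all genes with edgeR 4.0.16 (R 4.3.3): TMM factors, filterByExpr by group (min.count 10, at least 15 counts in total), glmQLFit and glmQLFTest with a single group term, calling genes at a Benjamini-Hochberg adjusted p under 0.05. The SE is log2 fold change over the root of the F statistic. Arm scores use log2(CPM + 0.5). DESeq2 1.42.0 and limma-voom (limma 3.58.1) with quality weights were alternatives, among 17 fits that also changed the scaling factors, the count filter, the design (replicate block, sex term, males only) and the libraries kept. Pseudocounts of 0.1 and 2 were tried for the arm scores. The fit was tested on simulated data. No pair of libraries within a group agreed within sampling noise (chi-square per degree of freedom 14.4 to 135).

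Exon lengths and overlaps come from GENCODE M21, near-identical copies were searched with blastn 2.17.0 at 95% identity, and promoter windows from RefSeq. No copy was found beyond the overlapping genes. The genes and lists were chosen with earlier results of these data known. Values in every library are given for Ern1, Atf6, Eif2ak3, Eif2ak4, Xbp1, Atf4, Ddit3, Atf3, Hspa5, Hsp90b1, any gene past the threshold, and in each role group the gene of smallest unadjusted p and that of highest mean CPM. From each further list up to 4 called genes are named or, with none, the 2 of smallest p. Any other gene was named with its values in view.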

Additional observations from a re-analysis of the deposited data

How the results depend on the processing

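Of the 32 stress response genes, 0 passed the adjusted threshold in any of the 17 alternative fits, Chac1 included in the 8 that could test it, but the fits with sex as a term and among males called so few genes in all that they say little about these. The number of all genes called moved from 59 to 155 with no count filter, 242 with DESeq2, 179 with limma-voom, 6 with sex as a term and 0 among males only (1752 at an unadjusted p under 0.05), and ran from 14 to 89 when single libraries were left out, the 89 without control replicate 3. DESeq2 called 1 of the further integrated stress response genes, against 0. The chaperone median, 0.10, was 0.20 with limma-voom, 0.18 with the sex term, 0.17 among males, 0.15 without both replicate 3 libraries, and 0.052 to 0.25 with single libraries left out, the 0.25 without control replicate 3. The PERK/ATF4 median, 0.03 over 10 genes without Chac1, had no stable sign. It is over 11 genes in the 8 fits that tested Chac1. Those are no filter, DESeq2, males only, both replicate 3 libraries out, and any guide library or control replicate 3 out. At a mean of at least 5 CPM, which left out Chac1 and also Atf5 and Sesn2, the median was -0.094. Over 10 genes it was -0.045 with limma-voom and -0.29 with the sex term. Over 11 genes it was -0.35 among males and -0.13 without both replicate 3 libraries. With single libraries left out, over 10 or 11 genes, it ran from -0.21 to -0.018, the -0.21 without guide replicate 3. The arm difference, 0.30, was 0.41 with a pseudocount of 0.1, 0.24 with 2, 0.41 among males, 0.24 to 0.36 with single libraries left out and, in a setting added after seeing the data, 0.23 without Chac1. Among males the single guide library is assumed to vary like the controls. Of the 31 tested genes, 16 had a fold change of the other sign in at least 1 alternative. Causes of these shifts were not tested.

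With the replicate number as a block, 32 genes were called and 0 of them were stress response genes. Deviations of same-numbered libraries correlated at 0.14, -0.14 and 0.04, and guide replicate 1 correlated best with control replicate 2, so the numbers were not taken as pairs. Depth limits Chac1, Sdf2l1 and Atf5, and with 3 mice a group small changes of the other genes could not be detected.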
